A study of Arabidopsis thaliana with 6 samples.

Results

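The EXORDIUM family of *Arabidopsis thaliana* was followed here through its 8 genes: EXO (AT4G08950), PHI-1 (AT1G35140, also called EXL1), EXL2 (AT5G64260), EXL3 (AT5G51550), EXL4 (AT5G09440), EXL5 (AT2G17230), EXL6 (AT3G02970) and EXL7 (AT2G35150). The family was selected on measured values, because EXO and PHI-1 differed strongly between the 2 columns of this series, and the other members were taken by gene name. Its 8 loci are 8 of the 33602 loci in each table. Because the contrast itself chose the family, its differences are given as a description, with no test.

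EXORDIUM proteins are small proteins that enter the secretory pathway and are found in the cell wall space. EXO is a gene that brassinosteroids induce. It promotes leaf and root growth in Arabidopsis by cell expansion, and overexpressing it raises the transcripts of several other brassinosteroid-induced growth genes. PHI-1 takes its name from a phosphate-induced transcript of tobacco cells, and in Arabidopsis it supports growth and survival when carbon is short. EXO and PHI-1 are also known to respond quickly to touch and other stimuli.

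The samples were whole seedlings of accession Col, kept in constant red light at 22 °C until day 4. There were 3 biological replicates of the wild type and 3 of the line labelled bbx4-1, whose name stands for a lesion in the B-box gene BBX4. The sources used here do not say what kind of lesion it is. The authors combined the replicates, so each genotype has 1 column of FPKM, a fragment count scaled to transcript length and library depth, and no value here has an SD.

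BBX4 itself (AT2G24790) goes against the label, at 88.97 FPKM in the wild type against 1095.7 in the other column, a ratio of 12.3. A line with more BBX4 transcript and an exchange of the columns cannot be told apart from these files, and an exchange would turn every direction given here. The columns are therefore called by their labels, wild-type always meaning the column so labelled, and each direction refers to the column labelled bbx4-1. Depth, read from transfer RNA genes with a single fragment, came to about 48.1 M fragments for the wild type and 49.8 M for the other column. From it come the 95% counting intervals, which cover counting error only and leave out the variation between seedlings. Markers of shoots summed to 23381.19 FPKM for the wild type against 23069.33 in the column labelled bbx4-1, and markers of roots to 38.48 and 40.87, with all 4 shoot and all 5 root genes measured. Of the flower and seed markers, AG, AP3 and SESA2 were at 0.11 FPKM or less in both columns, while the floral gene SEP3 was at 2.18 and 2.21 FPKM and CRA1, a seed storage protein, at 8.87 and 10.24.

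**Figure D1:**
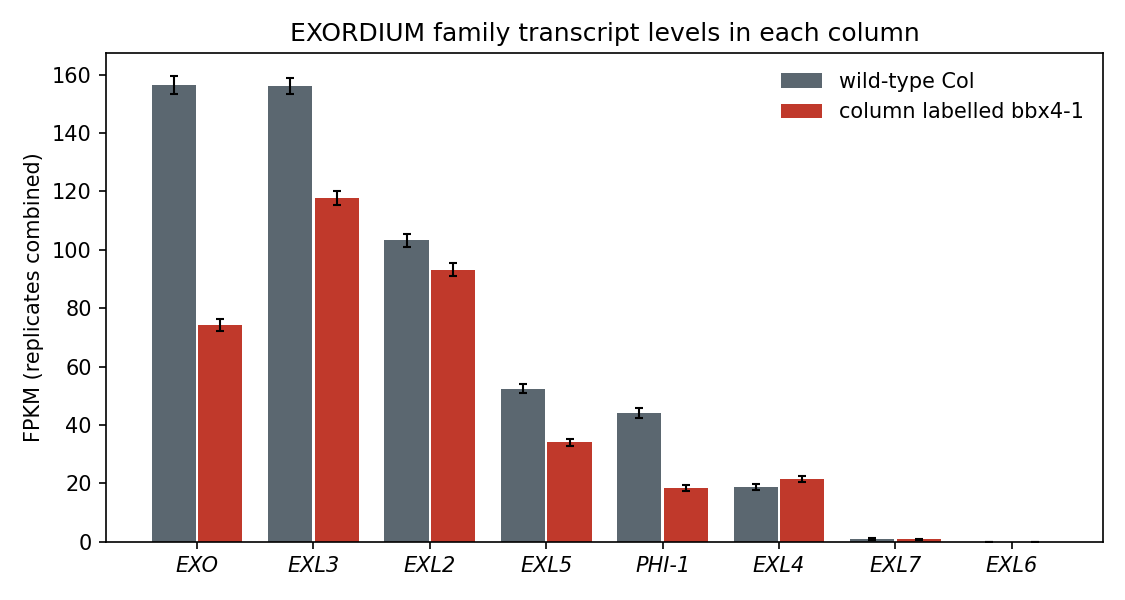
FPKM of the 8 family members (vertical axis, from 0) in the wild-type column (grey) and the column labelled bbx4-1 (red), ordered by their wild-type value. Bars are the authors' combined values and lines are 95% counting intervals. EXO has the tallest grey bar with EXL3, at 156.37 and 156.05 FPKM, and its red bar stands at 74.32.

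EXO, the founding member, stood at 156.37 FPKM in the wild-type column against 74.32 in the column labelled bbx4-1. It was 2.104-fold lower there, with a 95% counting interval of 2.03 to 2.18. On the scale of log2(FPKM + 1) the difference was −1.06 with a counting SE of 0.024. The 2 levels rest on about 10322 and 5084 fragments, and their own counting intervals, 153.4 to 159.4 and 72.29 to 76.39 FPKM, do not meet. The gene is a single exon on the forward strand of chromosome 4, positions 5740219 to 5741591 of TAIR10.1, with its coding sequence at 5740378 to 5741322. In these bulk samples, fewer cells that express a gene and less RNA of it per cell cannot be told apart.

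PHI-1, the closest relative of EXO by protein sequence, had 44.26 FPKM in the wild-type column against 18.52 in the column labelled bbx4-1. It was 2.39-fold lower, with a counting interval of 2.23 to 2.56 and a log2 ratio of −1.21 (counting SE 0.049). PHI-1 was the weaker of the pair in both columns. On the FPKM scale, which is per length, EXO was 3.53 times as high in wild-type and 4.01 times as high in the column labelled bbx4-1. The log2 ratio of EXO exceeded that of PHI-1 by 0.18, with a counting interval of 0.07 to 0.29 for ratios taken without a pseudocount. PHI-1 is also a single exon, on the forward strand of chromosome 1 at 12851983 to 12853235, with its coding sequence at 12852089 to 12853018.

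These were the 2 members at least 2-fold lower, and 0.0423% of the 18931 loci whose mean FPKM reached 1 were that much lower. PHI-1 had the second lowest log2 ratio of all these loci and EXO the one ranked 7, counted from the lowest. With the columns exchanged, these ranks would count from the highest. Since these values chose the family, the share is given only for scale. The next member outside that threshold was EXL5 at −0.60.

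The 250 bases before the annotated starts of EXO and PHI-1 are shown because these genes had the lowest ratios of the family, with EXL4, the member with the highest ratio, for contrast. They were read from the TAIR10.1 genome with the RefSeq annotation, on the forward strand, at chr4:5739969-5740218, chr1:12851733-12851982 and chr5:2937943-2938192. Capitals mark matches on either strand to any of 8 motifs. The E-box of bHLH factors was searched as CANNTG, its special case the G-box as CACGTG, and the core that the G-box shares with abscisic acid response elements as ACGTG. The brassinosteroid response element of the factor BZR1 was searched with one spelling as CGTGTG and with the other spelling as CGTGCG. The W-box of WRKY factors was likewise searched with one spelling as TTGACC and with the other spelling as TTGACT. The last was a rapid stress response element, searched as CGCGTT.
EXO: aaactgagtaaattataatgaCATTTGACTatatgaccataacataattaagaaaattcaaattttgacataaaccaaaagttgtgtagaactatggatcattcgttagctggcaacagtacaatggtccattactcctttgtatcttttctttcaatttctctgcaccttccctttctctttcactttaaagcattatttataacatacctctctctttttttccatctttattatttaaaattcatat
PHI-1: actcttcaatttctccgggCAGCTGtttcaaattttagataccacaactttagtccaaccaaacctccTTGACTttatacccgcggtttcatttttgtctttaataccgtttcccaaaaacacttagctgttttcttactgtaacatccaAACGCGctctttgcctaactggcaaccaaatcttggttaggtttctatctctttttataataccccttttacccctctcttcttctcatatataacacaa
EXL4: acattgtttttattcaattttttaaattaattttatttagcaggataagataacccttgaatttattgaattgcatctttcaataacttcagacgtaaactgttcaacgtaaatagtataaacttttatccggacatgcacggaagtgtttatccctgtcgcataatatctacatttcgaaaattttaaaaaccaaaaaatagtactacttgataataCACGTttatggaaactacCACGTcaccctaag

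EXO and PHI-1 were the 2 members of 8 whose window holds TTGACT, which starts 226 bases before the EXO start and 182 bases before the PHI-1 start. In EXO it overlaps the match to the E-box. It is in 19.1% of the same windows of 27443 nuclear protein-coding genes. PHI-1 was the 1 member with CGCGTT, found on the reverse strand 100 bases before its start, a motif in 2.59% of all windows. The E-box was in 4 of 8 members (EXO, PHI-1, EXL2 and EXL3) and in 55.3% of all windows. EXL4 holds 2 matches to the ACGTG core and EXL6 holds 1, against 22.9% of all windows. The 8 windows held no G-box, which is in 6.49% of all windows. They held neither spelling of the brassinosteroid response element (5.37% of all windows for CGTGTG, and 1.57% for the other) and not the first spelling of the W-box (12.2%). EXL5 and EXL7 held none of these motifs. These are letter matches in a short window and do not show that a factor binds there.

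**Figure D2:**
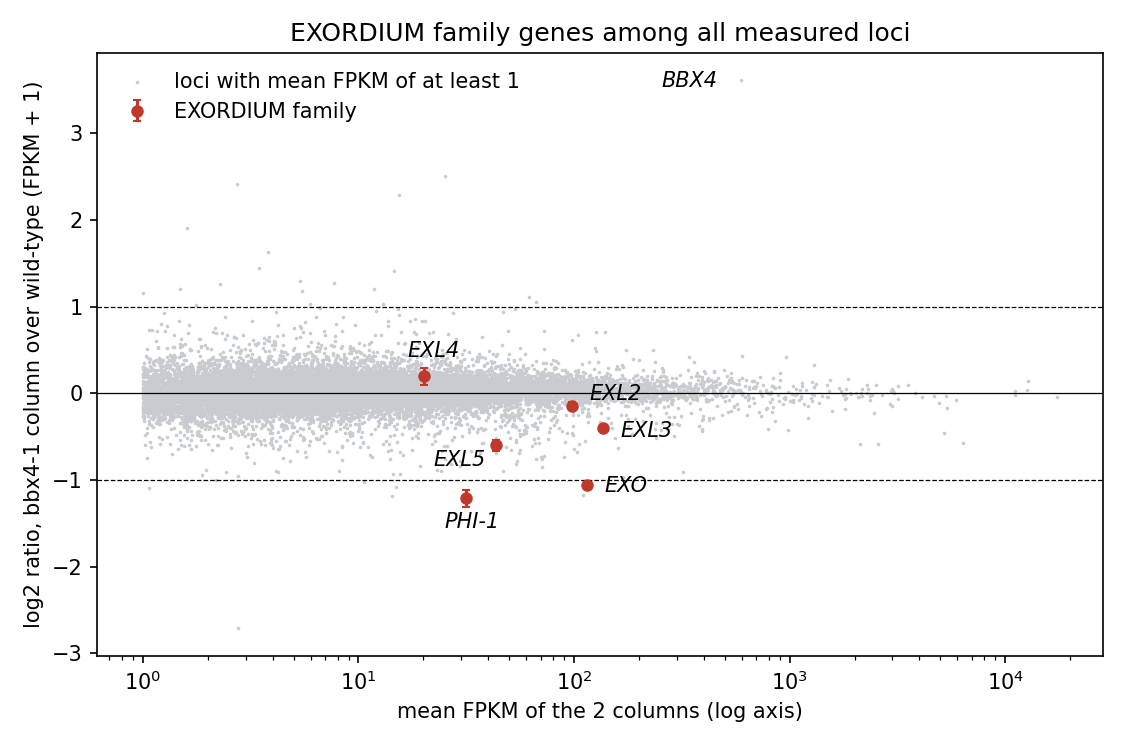
Log2 ratio of FPKM + 1 between the column labelled bbx4-1 and wild-type (vertical axis) against the mean FPKM of the 2 columns (horizontal log axis) for the 18931 loci whose mean FPKM reached 1. Grey points are loci, red points are the 6 measured family members with 95% counting intervals, and dashed lines mark a 2-fold difference. PHI-1 and EXO lie below the lower dashed line, and EXL4 lies above 0.

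Of the other members, EXL5 and EXL3 were lower by less. EXL5 stood at 52.35 FPKM in the wild-type column against 34.15 in the column labelled bbx4-1. Its log2 ratio was −0.60 (counting SE 0.033), a 1.53-fold difference with a counting interval of 1.46 to 1.61. EXL3 had the same level as EXO in wild-type, 156.05 FPKM, and stood at 117.77 in the other column, a log2 ratio of −0.40 (counting SE 0.020). The functions of both are less well described than those of EXO and PHI-1. The log2 ratio of EXO was below that of EXL3 by 0.67 without a pseudocount, with a counting interval of −0.73 to −0.60 for the difference.

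EXL2 and EXL4 differed least between the columns. EXL2 was at 103.29 and 93.23 FPKM, a log2 ratio of −0.15 (counting SE 0.022) and a 1.11-fold difference. EXL4 was at 18.73 and 21.61 FPKM, a log2 ratio of 0.20 (counting SE 0.050), and was the 1 member above 0. Its ratio was 1.15, with a counting interval of 1.07 to 1.24.

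The 2 remaining members were at or near 0. EXL7 had 1.05 FPKM in the wild-type column against 0.85 in the column labelled bbx4-1, about 59 and 49 fragments, and the counting interval of its ratio, 0.537 to 1.19, includes 1. EXL6 was listed at 0 in both columns. In the annotation it is overlapped by AT3G02975 on the other strand, a locus not analysed here, and how reads of overlapping genes were counted is unknown here. Both fall under a mean FPKM of 1, so 6 of the 8 members were counted as measured, whichever column was higher. The annotation gives EXL6 2 exons and each of the other 7 members 1.

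Among the 6 measured members, 5 had a log2 ratio below 0, against 40.4% of all measured loci. All 5 were below 0 by more than the counting interval, against 12.8% of 18741 loci with an annotated length. EXO and PHI-1 are among these 5 through the choice of the family. Of the other 4, EXL5, EXL3 and EXL2 were below 0 and EXL4 above. No member was at least 2-fold higher, as were 0.106% of all measured loci. The 4 measured members other than EXO and PHI-1 had a median log2 ratio of −0.275, or −0.147 when EXL6 and EXL7 were let in. The median over all measured loci was 0.028 and their central 95% ran from −0.33 to 0.35. EXL3 and EXL5 lay below that range, and EXL2 and EXL4 inside it. Because the tables hold no replicate columns, whether these differences exceed the spread between replicates was not tested.

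The order of levels within the family was not the same in both columns. In wild-type it ran EXO, EXL3, EXL2, EXL5, PHI-1, EXL4, EXL7 and EXL6. EXO and EXL3 could not be separated there, since the ratio of their levels was 1.00 with a counting interval of 0.976 to 1.03, while every other pair of neighbours down to EXL7 differed by more than counting error. In the column labelled bbx4-1, the order was EXL3, EXL2, EXO, EXL5, EXL4, PHI-1, EXL7 and EXL6, with all neighbours down to EXL7 apart by more than counting error. The ratio of PHI-1 to EXL4 was 2.36 in wild-type (2.21 to 2.52) and 0.857 in the column labelled bbx4-1 (0.795 to 0.924). Among the 33323 nuclear loci, EXO ranked 655 in wild-type and 1482 in the other column, and PHI-1 ranked 2487 and 5890.

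Summed over the 8 members, FPKM came to 532.10 for the wild type against 360.45 in the column labelled bbx4-1, 32.3% less. EXO made up 29.4% of the wild-type family sum but 20.6% of that in the column labelled bbx4-1, and EXL2 19.4% and 25.9%. Of the difference of 171.65 FPKM, 62.8% came from EXO and PHI-1 and 37.2% from the other 6 members together. EXO alone was lower by 82.05 FPKM, EXL3 by 38.28 and PHI-1 by 25.74.

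The proteins fall into groups by sequence, while EXO and PHI-1 were chosen by their values. Translations of the annotated coding sequences were 278 residues (EXL4) to 363 residues (EXL5) long, with 314 for EXO and 309 for PHI-1. EXO and PHI-1 were identical at 67.6% of 309 aligned residues, and EXL2 and EXL4 at 82.3% of 277. Between these pairs identity was 56.7% to 59.5%. EXL3, EXL5 and EXL7 formed a second group, with 56% identity between EXL3 and EXL5, 55.6% between EXL3 and EXL7 and 56.7% between EXL5 and EXL7. EXL6 was at 37.5% or less with every other member.

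**Figure D3:**
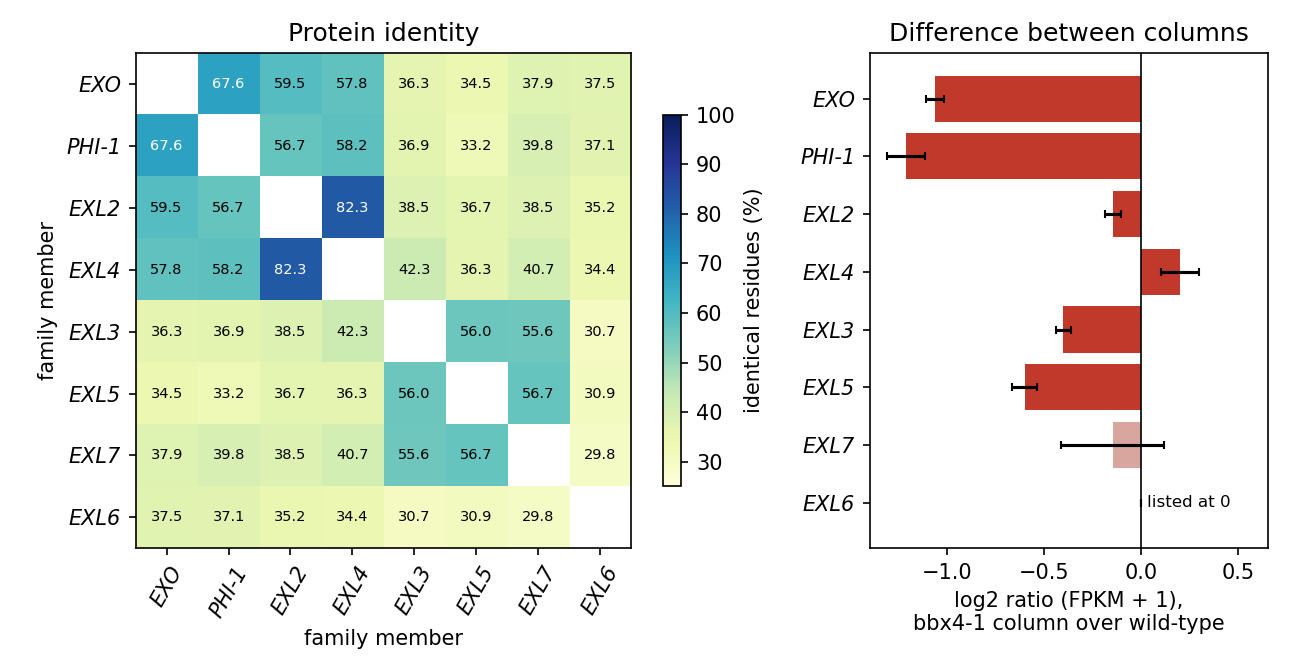
Left, percent of identical residues between each pair of family proteins (colour scale and numbers), with members in the same order on both axes. Right, log2 ratio of FPKM + 1 of each member between the column labelled bbx4-1 and wild-type, with 95% counting intervals, the pale bar being EXL7 with a mean FPKM under 1. The pair EXL2 and EXL4 has the highest identity, 82.3%, and log2 ratios of −0.15 and 0.20.

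Read against these groups, EXO and PHI-1 had log2 ratios of −1.06 and −1.21, and EXL2 and EXL4 had −0.15 and 0.20. EXO and PHI-1 were chosen for their strong difference, so their like ratios say nothing about the sequence groups. EXL3 and EXL5, the measured members of the second group, had −0.40 and −0.60. The wider group of EXO, PHI-1, EXL2 and EXL4 held the lowest and the highest ratios of the family. Within each of these pairs the ratios, taken without a pseudocount, differed by more than counting error. They differed by 0.18 between EXO and PHI-1 (0.07 to 0.29 for EXO minus PHI-1). The difference was 0.35 between EXL2 and EXL4 (−0.47 to −0.24 for EXL2 minus EXL4). It was 0.21 between EXL3 and EXL5 (0.13 to 0.29 for EXL3 minus EXL5). The longest run of bases shared by the coding sequences of any 2 members was 24, between EXL2 and EXL4, and EXO and PHI-1 shared 23 at most. The sources used here do not give the read length or how reads with several matches were handled.

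Genes around the members had ratios nearer to 0. The nearest 2 annotated loci on each side of EXO and PHI-1 were at 0.03 FPKM or less in both columns, apart from AT4G05680, which was not analysed here. The nearest loci whose mean FPKM reached 1, looked up after that was seen, were AT4G08940 at 0.035 and AT4G08960 at 0.10 beside EXO, 8.02 and 4.68 kb away. Beside PHI-1 they were AT1G35115 at −0.056 and the 14-3-3 protein gene GF14 PHI (AT1G35160) at 0.088, 6.53 and 13.8 kb away. Around EXL2, EXL3, EXL4 and EXL5, the 13 measured loci among the nearest 2 on each side had log2 ratios from −0.21 to 0.08. Their median was 0.002, and none of them lies beside EXO or PHI-1.

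The nuclear loci whose pattern was most like that of EXO were sought among 1501 with 0.5 to 2 times its mean FPKM, by the difference in log2 ratio over the 2 columns. They were TCH4 (−1.18), a xyloglucan endotransglucosylase induced by touch, AT2G20670 (−0.76) and AT5G19190 (−0.65). TCH4 also had nearly the same levels as EXO, 153.8 FPKM for the wild type against 67.45 in the column labelled bbx4-1. For PHI-1, among 4983 such loci, they were DIC2 (−0.90), a mitochondrial dicarboxylate carrier, SZF1 (−0.90), a zinc finger protein of stress responses, and WRKY18 (−0.88), a transcription factor of defence. With 2 columns, a shared pattern means no more than a like ratio at a like level.

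**Figure D4:**
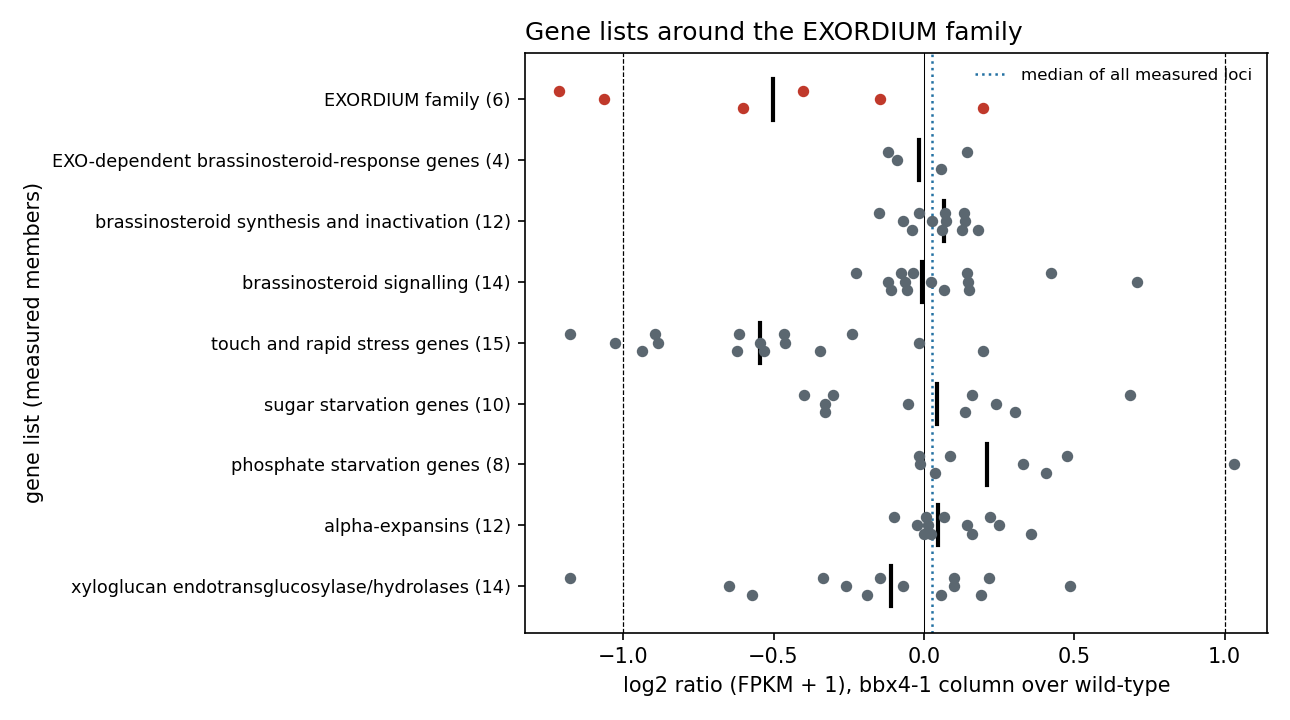
Log2 ratios of FPKM + 1 between the column labelled bbx4-1 and wild-type for the measured members of each gene list (points, with family members in red), with the list's median as a black bar. The dotted line is the median of all measured loci, 0.028, and dashed lines mark a 2-fold difference. The family and the touch and rapid stress genes have medians of −0.503 and −0.546, and the other lists lie between −0.108 and 0.209. The family median includes EXO and PHI-1, whose values chose the family. The touch and rapid stress list was drawn up with its direction in these columns known.

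EXO acts in growth under brassinosteroids. The lists of EXO-dependent genes, of brassinosteroid synthesis and inactivation and of brassinosteroid signalling had medians near 0. These medians do not measure the action of the hormone, which was not tested. Of 4 genes whose transcripts follow EXO in Arabidopsis, 2 had log2 ratios below 0 and 2 above, with a median of −0.017 and none past 2-fold. Over all measured loci, 40.4% were below 0, 0.0423% at least 2-fold lower and 0.106% at least 2-fold higher. KCS1, an enzyme of very long chain fatty acid synthesis, was at 58.69 and 53.98 FPKM (−0.12). The vacuolar aquaporin gene DELTA-TIP was at 917.27 and 861.49 FPKM (−0.09). The expansin gene EXPA5 was at 23.24 and 25.77 FPKM (0.14) and AGP4, an arabinogalactan protein, at 37.12 and 38.64 (0.056).

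Brassinosteroid synthesis and inactivation genes had a median of 0.065. Of 12 measured members, 4 were below 0, against 40.4% of all measured loci, and none was past 2-fold. The lowest of the list was SOB7, an inactivating cytochrome P450, at −0.15 (8.25 and 7.34 FPKM). The highest was BR6OX1, a late enzyme of synthesis, at 0.18 (1.2 and 1.49 FPKM). The list pools synthesis with inactivation genes, so its median gives no direction for the hormone. The signalling genes had a median of −0.006, with 7 of 14 below 0, again against 40.4% of all measured loci. The median was 0.024 without the filter on low values and 0.046 with a filter at mean FPKM 5. Beyond the counting interval, 4 signalling genes were below 0 and 5 above. Of all loci with an annotated length, 12.8% were below 0 by that much, and the share above was not computed. The lowest signalling gene was BEE3, a bHLH factor of brassinosteroid responses, at −0.225. The highest was PRE1, a small HLH protein that promotes elongation, at 0.71 (3.97 and 7.12 FPKM). BEE1, a relative of BEE3 singled out after its value was seen, was at 0.42 (12.83 and 17.53 FPKM), and it and PRE1 lay above the central 95% of all loci. No measured brassinosteroid gene of these 2 lists reached the ratio of EXO in either direction.

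Most touch and rapid stress genes had log2 ratios below 0, as EXO and PHI-1 did. Of 15 measured members, 14 had log2 ratios below 0, 13 of them by more than the counting interval, and 2 were at least 2-fold lower. Over all loci these shares were 40.4%, 12.8% and 0.0423%. The list's median was −0.546. TCH4 was the lowest at −1.18, and WRKY40, a repressor of defence genes, was at −1.03 (14.51 and 6.61 FPKM). TCH3, a calmodulin-like protein, was nearly level at −0.018 (223.64 and 220.83 FPKM), and the zinc finger gene CZF1 was at −0.238, both named after their values were seen. The 1 member above 0 was CAM2, a calmodulin first found as the touch gene TCH1, at 0.196 (72.16 and 82.79 FPKM). Calmodulin genes are close copies of each other, so its value is uncertain where reads could not be told apart. This list was drawn up with its direction in these columns known, and is no independent evidence of it.

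The other cell wall genes went both ways. Xyloglucan endotransglucosylase/hydrolases, which cut and rejoin wall polymers, had a median of −0.108. Of 14 measured members, 8 were below 0, against 40.4% of all measured loci. TCH4, which belongs to this list too, was the 1 member past 2-fold, as were 0.0423% of all measured loci on the lower side. XTH23 at −0.65 and XTH16 at −0.57, both named after their values were seen, came next. Of the 6 members above 0, XTH24 was the highest at 0.49 (104.77 and 147.26 FPKM). Alpha-expansins, which loosen the wall, had a median of 0.045, with 2 of 12 below 0, against 40.4% of all measured loci. They ran from EXPA11 at −0.099 to EXPA1 at 0.36 (102.59 and 131.65 FPKM).

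Genes of sugar starvation, the condition in which PHI-1 is known to act, had a median of 0.042. Of 10 measured members, 5 were on each side of 0, against 40.4% below 0 over all measured loci. The median of the list was −0.026 without the filter on low values and −0.052 with a filter at mean FPKM 5. TPS8, a trehalose-phosphate synthase family protein, was the lowest at −0.40 (38.94 and 29.27 FPKM), and ASN1, asparagine synthetase, the highest at 0.69 (19.81 and 32.48 FPKM). Phosphate starvation genes had a median of 0.209, with 2 of 8 measured members below 0, against 40.4% of all measured loci. The median was 0.062 without the filter on low values, 0.330 with a filter at mean FPKM 5 and 0.129 with a pseudocount of 5. The lowest was the phosphate transporter gene PHT1;1 at −0.016, which has near-identical neighbours. The highest was the noncoding RNA IPS1 at 1.03 (3.59 and 8.37 FPKM), the 1 member at least 2-fold higher. Over all measured loci, 0.106% were at least 2-fold higher.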

How the data were processed

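Messenger RNA of wild-type and bbx4-1 seedlings was measured by RNA sequencing after poly(A) enrichment, per the labels' protocols. The deposited values are FPKM computed by the authors, 1 column per genotype, with 3 replicates combined per the series' design text. HISAT2 2.1.0, edgeR 3.0.8 and TAIR10 are named in the submitters' processing notes; the sources used here do not give the counting tool, annotation release, strand setting or filters. With 1 column per genotype no test was run.

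Values were compared as log2(FPKM + 1), column labelled bbx4-1 minus wild-type, which understates differences of low genes, over loci whose mean FPKM reached 1. Approximate fragment numbers came from FPKM, exon length and the FPKM of single fragments on transfer RNA genes of at most 75 bp (20 genes in wild-type, 18 in bbx4-1). Counting SEs and 95% intervals (exact Clopper-Pearson for ratios, exact Poisson for levels, normal for log2 differences) follow from them. Without molecular identifiers they cover counting error only. The RefSeq annotation of TAIR10.1 matched 32835 of 33602 loci by name. It supplied lengths, symbols, coordinates and sequence, while the tables hold locus names only. Proteins were translated and aligned pairwise with Biopython 1.88 (global, BLOSUM62), and identity counts aligned residues. The depth and ratio steps were tested on simulated data. The simulation drew counts at a set depth from the same lengths, without replicate variation, so it checks the arithmetic only.

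Genes were named by rule: all members, each list's highest and lowest measured member, those past 2-fold, all of a list of 4, and the 3 loci nearest in pattern to EXO and to PHI-1. Members and lists were chosen with earlier results of these data known. All 119 list entries matched the annotation, with an At prefix allowed for EXPA3. Alternatives were pseudocounts of 0.1 and 5, 3 rescalings and other filters.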

Additional observations from a re-analysis of the deposited data

How the results depend on the processing

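EXO and PHI-1 stayed at least 2-fold lower, and EXL4 stayed above 0, under all pseudocounts and rescalings tried. With a pseudocount of 5, PHI-1 was at −1.07. Without the filter on low values, the median of the members other than EXO and PHI-1 was −0.147, since EXL6 and EXL7 then enter it. The family sum was at −0.591 after TMM rescaling and −0.592 after median centring, against −0.561 as deposited. These rescalings shift ratios without a pseudocount down by 0.031 on the log2 scale. Ratios of FPKM + 1 shift by less for low genes, as for EXL7 from −0.148 to −0.163 after TMM rescaling. The other 88 recomputed values for the family and the lists lay within a band. It was the counting interval for single genes and the family sum, and 1.5 times for counts of members. For medians the band ran between the medians of the single genes' lower and upper limits. This is no counting interval of the median itself, so lying inside it does not show that a median is stable. Inside it, the phosphate starvation median ran from 0.062 to 0.330. The rescaled values of EXL2 to EXL5 and EXL7, 25 in all with both other pseudocounts, were added after seeing the data and lay within their intervals too. No paired analysis was possible because each genotype has 1 combined column without replicate numbers, and for the same reason no replicate could be left out. List medians near 0 moved most in proportion. Those of brassinosteroid signalling (−0.036 to 0.046) and sugar starvation (−0.052 to 0.044) took both signs. The others ran from 0.016 to 0.068 for alpha-expansins, −0.048 to −0.016 for the EXO-dependent genes and 0.036 to 0.069 for brassinosteroid synthesis. At this depth no difference was detectable for EXL7, and EXL6, listed at 0, gave none to compare.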
